A study of Mus musculus with 2 samples.

Results

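Collagen gene bodies were described as the CpGs from 1 kb upstream of the 5' end to the end of every autosomal protein-coding gene whose symbol has the form Col, number, a, number in the mm9 annotation. Such genes numbered 41 of 21418, and all 41 held shared CpGs, that is, CpGs read at least 5 times in both libraries. Together they held 6861 of the 1604544 shared CpGs in autosomal protein-coding genes and of the 2654195 in the whole data set. The number per gene ran from 14 in Col3a1 to 465 in Col23a1, with a median of 128. CpGs within 1 kb of the 5' end were taken as promoter, and the others as exon or intron.

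The data are reduced representation bisulfite sequencing (RRBS) of liver DNA, in which MspI cuts at CCGG, short fragments are kept, and cytosines that resist bisulfite are read as methylated. One library was made from WT mice and 1 from mice homozygous for the Uhrf1 YP187/188AA KI allele, which removes the binding of Uhrf1 to H3K9me2/3 in every cell. Each library pooled DNA of 3 males aged 3 months, of strain C57BL/6 by the labels, and the KI allele was made in 129/SV ES cells. With 1 library per genotype every test below compares these 2 libraries, and the intervals are 95% intervals of counting error only. Reads that span several CpGs and PCR copies are counted as independent, so the intervals are too narrow and the p-values too small. The cells of the liver were not separated, and of 14 hepatocyte marker promoters only 4 were measured, at 2.78% to 56.7% in WT, so the markers check the tissue weakly. By the rule for genes given with the gene counts, 3 of the 4 were called lower in KI, beside 6.42% of all promoters tested. Of the blood and Kupffer cell markers 3 of 7 were measured, at 65.3% to 74.8% in WT, and 1 was called lower. The stellate cell and fibroblast markers (3 of 6 measured), the endothelial ones (2 of 5) and the cholangiocyte ones (2 of 4) had 0 calls.

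Collagens are the main proteins of the extracellular matrix. Their chains wind into a helix of 3, which needs glycine at the start of each Gly-X-Y repeat, with proline common in the other positions. Fibrillar collagens form the banded fibres that stellate cells and fibroblasts lay down in scarred liver, basement membrane collagens form sheets under endothelium and bile ducts, and most of the others are used mainly in cartilage, skin, nerve or muscle. Uhrf1 recognizes the hemimethylated CpGs left by replication and brings Dnmt1 to them, so that the pattern of methylation is copied. Methylation over the body of a gene and methylation at its promoter are different states, which is why they are given apart.

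The repeat is visible in the sequence that RRBS samples. Glycine took 20.3% and proline 13.9% of the codons in the 41 collagen coding sequences, against 6.31% and 6.05% in the 20377 other coding sequences examined. Where a codon that ends in CC, as a proline codon can, precedes a glycine codon, the letters CCGG appear, and 39.1% of the CCGG sites of collagen coding sequence lay across such a boundary, against 24.6% elsewhere. Collagen coding sequence held 5.31 CCGG sites per kb against 2.79 elsewhere, although its CpGs were slightly fewer, at 2.67 against 2.95 per 100 bases. Of all coding CpGs, 19.9% lay in CCGG in collagens and 9.46% in other genes. The exons of the helix also keep a unit length: 25.6% of the 1813 internal coding exons were exactly 54 bases long, and 64.6% were a multiple of 9, against 0.402% and 13.7% elsewhere. The next exons are shown because each carries a pair of CCGG sites within 6 repeats, on the gene strand of mm9 with CCGG in capitals. They are examples from 9 such exons with shared CpGs, and their values do not stand for the 9.
Col1a1 coding exon 34, chr11:94807888-94807941: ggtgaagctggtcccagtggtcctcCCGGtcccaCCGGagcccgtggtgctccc
Col16a1 coding exon 41, chr4:129750484-129750537: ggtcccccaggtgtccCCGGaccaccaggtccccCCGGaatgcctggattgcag
Col16a1 coding exon 59, chr4:129767328-129767381: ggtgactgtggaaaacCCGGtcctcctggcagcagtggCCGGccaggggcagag
The Col1a1 exon averaged 64.6% in the WT library and 60.6% in the KI library, exon 41 of Col16a1 45.9% and 43.0%, and exon 59 of Col16a1 44.8% and 27.5%. The 3 CpGs of the Col1a1 exon outside CCGG rose from 74.4% to 80.2%, so its fall came from CCGG sites. The values of both Col16a1 exons come from CCGG sites alone. Over the 74 exons of 54 bases that began with glycine repeats and held shared CpGs, 59 were lower in KI and 14 were higher. Their 224 CpGs averaged 59.4% in WT and 54.2% in KI.

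The CCGG sites also shape the measured level. The 1136 collagen CCGG sites read on both strands stood at 76.1% on the more methylated strand of each site in WT and at 5.23% on the less methylated one, whereas the 1836 other CpG sites read on both strands stood at 64.9% and 57.9%. CCGG sites made up 41.1% of the shared exon CpGs of collagens and 25.5% of those of other genes, while for introns the shares were 41.7% and 40.4%. The gap between the strands of CCGG sites was not taken as hemimethylation of liver DNA, and its source was not tested. Levels outside CCGG sites are therefore printed beside those of all shared CpGs for the means of exons, introns and promoters. Values of genes, families, windows and positions along the gene are over all shared CpGs unless stated otherwise.

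Mean methylation of collagen genes was lower in KI by several points in exons and introns. In promoters, where the WT level was low, the mean was lower by under 1 point. Of the 28 promoters with at least 5 CpGs, 17 were lower and 11 higher, with a median change of -0.269 points. Over all 6861 CpGs the mean went from 52.4% to 49.0%, a change of -3.35 points (-3.58 to -3.12). Other protein-coding genes changed by -1.67 points from 36.6%, and all shared CpGs of the data set by -2.99 points from 45.6%. Relative to WT, the change was -6.40% in collagens, -4.56% in other genes and -6.55% over all shared CpGs. The 1939 exon CpGs went from 65.6% to 61.7%, a change of -3.94 points (-4.37 to -3.51), and the 3771 intron CpGs from 59.6% to 55.8%, a change of -3.86 points (-4.18 to -3.54). In other genes the same classes changed by -1.88 points from 55.0% and by -2.76 points from 56.0%. Outside CCGG sites the collagen exons changed by -4.23 points from 79.8% and the introns by -4.85 points from 72.4%. There the exons of other genes changed by -2.06 points from 60.3% and their introns by -3.37 points from 66.0%. The intervals of collagens and of other genes, which started from unlike WT levels, did not overlap in either class. Those of collagen exons and introns did. The 1151 promoter CpGs changed from 6.36% to 5.67%, by -0.691 points (-1.17 to -0.208). The change of other promoters, -0.316 points from 5.36%, lay within this interval. Relative to WT, collagen promoters changed by -10.9%, exons by -6.00% and introns by -6.47%, beside -5.90%, -3.41% and -4.93% in other genes. With promoters counted around every annotated transcript start, the promoter change was -1.65 points over 1780 CpGs.

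**Figure D1:**
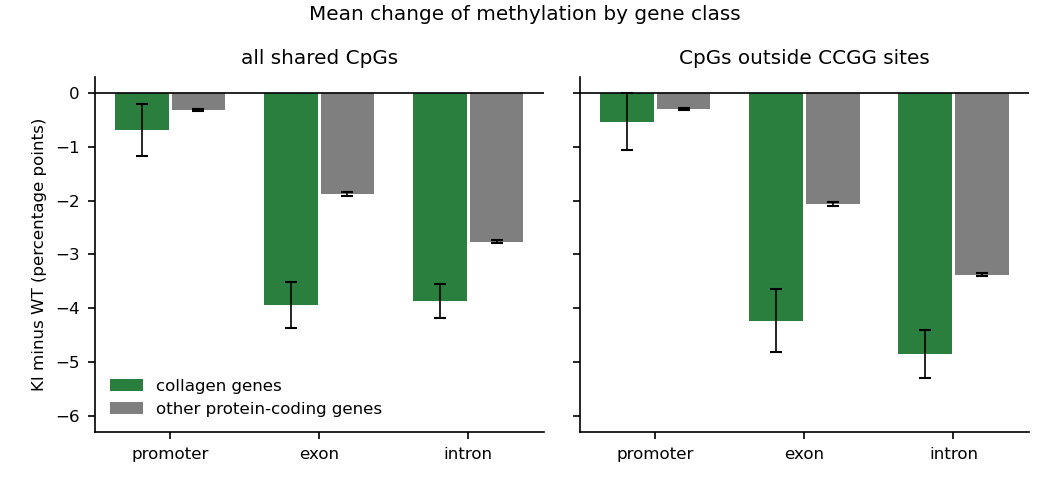
Bars give the mean change of methylation, KI minus WT in percentage points, for promoter, exon and intron CpGs of 41 collagen genes (green) and of the other autosomal protein-coding genes (grey), over all shared CpGs (left) and those outside CCGG sites (right). Error bars are 95% counting intervals. Collagen exons changed by -3.94 points and exons of other genes by -1.88 points.

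The level of a CpG itself bears on how far it can fall. Exon and intron CpGs were therefore compared within bins of the mean of both libraries, without CCGG sites. At 80% and above, collagen exons changed by -3.10 points (-3.73 to -2.46) and exons of other genes by -1.66 points, and collagen introns by -3.22 points beside -2.33 points. Between 50% and 80% the collagen values lay within their intervals of the other genes, at -5.72 against -5.84 points in exons and -8.17 against -8.08 points in introns. Between 20% and 50% collagen exons changed by -11.8 points (-14.4 to -9.23) from 41.9% in WT over 70 CpGs, and other exons by -4.80 points from 37.4%. Under 20% collagen exons changed by -2.08 points (-3.94 to -0.214) from 7.35% over 56 CpGs, and other exons by -0.333 points from 2.95%. Collagen introns under 20% changed by -1.57 points (-2.73 to -0.416) from 6.91%, and other introns by -0.334 points from 2.99%. The WT levels of collagens and other genes thus still differed within these bins. In introns between 20% and 50% the collagen value, -8.57 points, lay within its interval of the -6.85 points of other genes.

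**Figure D2:**
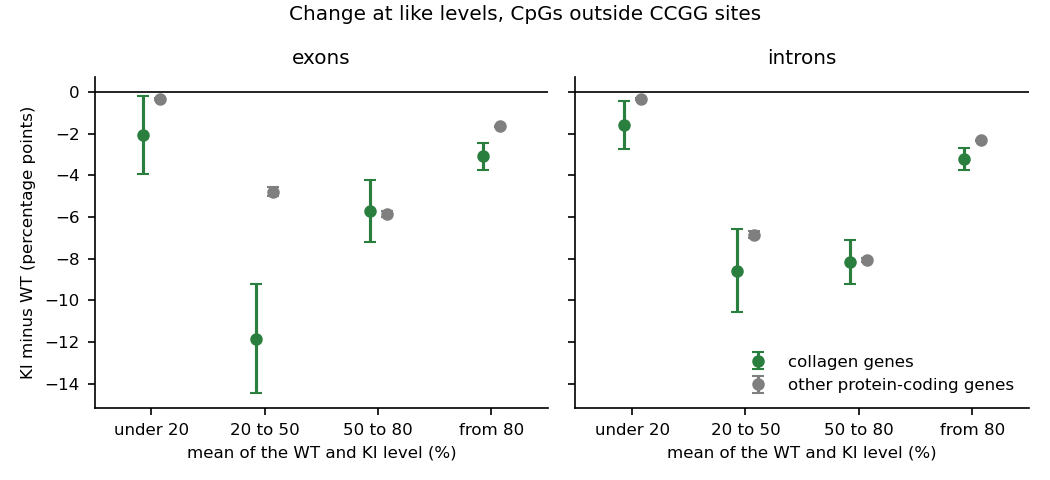
Points give the mean change, KI minus WT in percentage points, of exon CpGs (left) and intron CpGs (right) outside CCGG sites, by the mean of the WT and KI level, for collagen genes (green) and other protein-coding genes (grey). Error bars are 95% counting intervals. Both sets changed alike at 50% to 80%, at -5.72 and -5.84 points in exons, and collagens changed more at 80% and above.

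Gene by gene, the mean over CpGs was lower in KI in all 41 collagens, and in 76.7% of the 16814 genes tested, which held at least 5 CpGs. Without promoter CpGs it was lower in 40 collagens and higher in Col15a1, and it was lower in 80.9% of the 13703 genes tested in that way. A gene was called where Fisher's exact test on its summed reads and the Cochran-Mantel-Haenszel test with each CpG as a stratum, both two-sided, passed an adjusted p of 0.05 in the same direction. By this rule 34 of 41 collagens were lower and 0 were higher, beside 31.8% of all genes tested that were lower and 1.13% that were higher. Among genes with at least 128 shared CpGs, where more reads were tested, 17 of 21 collagens were lower and 0 higher, beside 47.1% and 1.04%. Without promoter CpGs 35 of 41 collagens were lower and 0 higher, beside 35.7% and 0.774% of all genes tested in that way. Col2a1 and Col12a1 were called there in addition, and Col5a3 was not. The median change of a collagen was -3.66 points and that of all genes tested -0.87 points, at median WT levels of 54.4% and 33.9%. Without promoter CpGs the median changes were -4.34 and -1.93 points, at median WT levels of 63.8% and 63.7%. For introns alone 24 of 38 collagens were lower, beside 31.7% of all genes tested, for exons 18 of 37, beside 23.1%, and for promoters 3 of 28, beside 6.42%. In each class 0 collagens were higher, beside 0.651% of all genes for introns, 1.16% for exons and 1.15% for promoters. Fisher's test alone gave 1 higher gene, and the stratified test alone 1 gene with higher exons, which was Col15a1 in both.

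**Figure D3:**
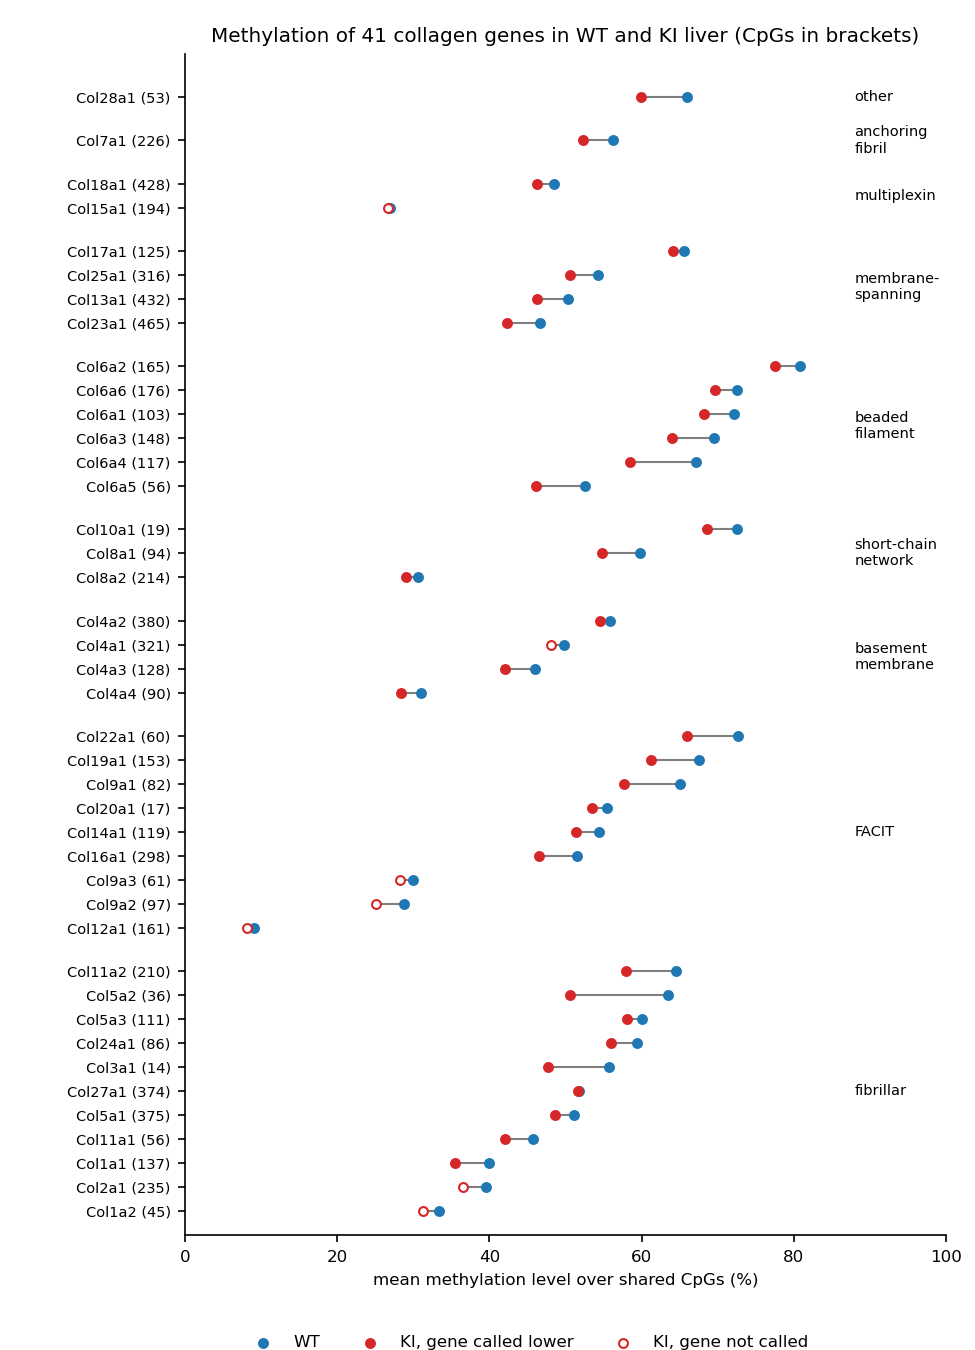
Each line joins the mean methylation level of a collagen gene in WT (blue) and in KI (red) over its shared CpGs, whose number stands in brackets, by collagen family. Filled red points are the 34 genes called lower, and open points the 7 not called. The KI point lies left of the WT point in every gene, from 63.5% against 50.5% in Col5a2 to 51.74% against 51.69% in Col27a1.

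The fibrillar collagens, which form the tensile fibres of connective tissue, changed by -3.39 points over 1432 exon and intron CpGs, and 9 of 11 were called lower. Col5a2, a chain of the type V collagen that sets fibre diameter, had the largest fall of all collagens, from 63.5% to 50.5% (-15.8 to -10.0 points) over 36 intron CpGs, of which 32 were lower. Col3a1, the chain of the fine reticular fibres of liver, went from 55.8% to 47.7% on 14 CpGs, the fewest of any collagen. Col11a2, a cartilage chain, went from 64.6% to 58.0% over 210 CpGs. It lies on chromosome 17, as Uhrf1 does. Col1a1, the main chain of scar collagen, went from 40.0% to 35.4% (-6.37 to -2.75 points). Its partner Col1a2 went from 33.4% to 31.2% over 45 CpGs and was not called at 5 reads per CpG but was at 10 and at 20. Without CCGG sites Col1a2 changed by -0.960 points and was not called. Its 14 CpGs beyond the promoter went from 63.0% to 61.3%, with 5 lower and 5 higher, and were not called. Col5a1 changed by -2.43 points from 51.1%. Col2a1, the cartilage collagen, went from 39.6% to 36.5% over 235 CpGs and was not called, since the summed reads did not pass. Without its 39 promoter CpGs, at 1.17% in WT, it went from 47.2% to 43.5% and was called lower. Col27a1 was called with a mean of 51.7% in both libraries, since its summed reads fell by 1.84 points and the stratified test passed as well.

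The collagens of basement membranes changed by -2.36 points from 66.3% over 687 exon and intron CpGs. Col4a1 went from 49.8% to 48.2%, and its neighbour Col4a2 from 55.8% to 54.6%, a change of -1.24 points (-2.06 to -0.416) over 380 CpGs. Only Col4a2 of this pair was called, and not without CCGG sites, where it changed by -0.458 points, nor with both strands summed, at -1.32 points. Col4a3 and Col4a4, the chains of kidney basement membrane, changed by -4.02 and -2.65 points. Each pair is transcribed in opposite directions from a shared start, so 71 promoter CpGs of the first pair and 45 of the second were counted for both genes. The multiplexins Col15a1 and Col18a1, which carry an endostatin domain and lie next to basement membranes, changed by -2.10 points in exons and introns. Col15a1 went from 26.9% to 26.7% and was not called, and Col18a1, which hepatocytes express, went from 48.4% to 46.2%. Another annotated gene shares 58 of the Col18a1 CpGs. In Col15a1 exons 17 of 26 CpGs were higher in KI, from 63.7% to 67.3%, which passed in the stratified test alone.

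The FACIT collagens, which sit on the surface of fibrils, changed by -5.60 points (-6.34 to -4.86) over 773 exon and intron CpGs. Col9a1 went from 65.1% to 57.7%, Col22a1 from 72.6% to 66.0% and Col19a1 from 67.6% to 61.2%, and all of these were called. Col14a1, a FACIT of liver stroma, went from 54.4% to 51.4%. Col12a1 stood at 9.01% and 8.15% and was not called over all 161 CpGs, of which 121 lay in a promoter at 0.557% in WT. Its 40 exon and intron CpGs went from 34.6% to 30.8% and were called lower. Col9a2 and Col9a3 were not called with or without their promoters.

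All 6 beaded-filament collagens were called lower, with a change of -4.74 points from 72.7% in exons and introns. Col6a2 was the most methylated of all collagens, at 80.9% in WT and 77.6% in KI. Col6a1 changed by -4.03 points, Col6a3 by -5.56 points, Col6a5 by -6.33 points and Col6a4 by -8.67 points, from 67.2% to 58.5%. Col6a4, Col6a5 and Col6a6 lie side by side on chromosome 9. The 4 membrane-spanning collagens, whose chains sit in the cell membrane, were all called, at -4.58 points, and include the genes with most CpGs, Col23a1 with 465 CpGs from 46.6% to 42.3% and Col13a1 with 432 CpGs from 50.3% to 46.2%. Of the rest, Col7a1 of skin anchoring fibrils changed by -4.05 points and Col28a1 by -6.11 points, and the short-chain collagens Col8a1, Col8a2 and Col10a1 by -4.97, -1.57 and -3.88 points. All 19 CpGs of Col10a1 also lie in another annotated gene.

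Of the 28 collagen promoters with at least 5 shared CpGs, 18 were under 5% in WT. The 4 highest in WT were those of Col9a1, Col6a5, Col11a2 and Col8a1. That of Col8a1, a short-chain collagen of vessel wall, went from 30.5% to 15.4% (-21.6 to -8.57 points), and all 8 of its CpGs were lower, with 67.0 reads per CpG in WT and 33.4 in KI. The promoter of Col9a1 went from 69.9% to 60.6% and that of Col11a2 from 35.4% to 27.1%, and these 3 were the called promoters. The promoter of Col6a5 went from 41.7% to 35.1% on 15.7 and 33.9 reads per CpG and was not called. The Col1a1 promoter stood at 26.6% and 26.0%.

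Along the genes, levels were lowest at the 5' end and rose into the body. The 26 CpGs between 1 kb and 750 bases upstream were the exception, at 51.9% in WT and 42.9% in KI (-14.4 to -3.67 points). Within 250 bases downstream of the 5' end collagen CpGs averaged 4.24% in WT and 3.43% in KI, at 1 to 2 kb 18.3% and 14.0%, and at 2 to 5 kb 51.9% and 47.3%. From 2 kb on, the change was between -3.35 and -4.66 points in each step out to 500 kb. Other genes changed by -1.68 points at 2 to 5 kb and by -3.44 points at 100 to 500 kb, where collagens changed by -3.55 points. With each gene beyond its promoter cut into 5 equal parts, the WT level of collagens was 55.5% in the first and 67.7% in the last, and the change was in order -4.07, -3.97, -4.59, -3.51 and -3.44 points. In the last, the intervals of collagens (-3.93 to -2.96 points) and other genes (-2.55 to -2.48 points) were still apart.

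**Figure D4:**
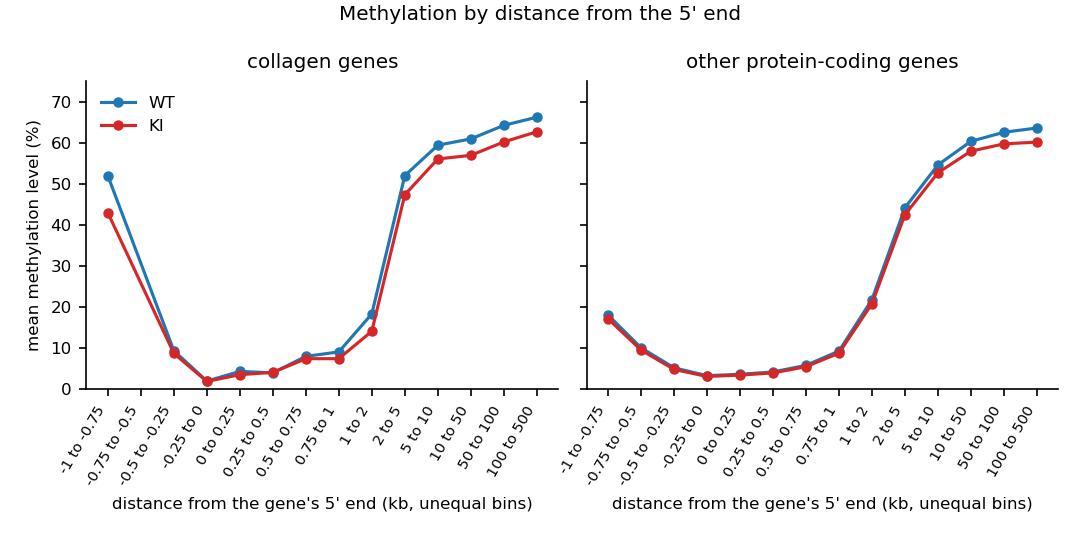
Lines give the mean methylation level in WT (blue) and KI (red) by distance from the 5' end of the gene, in bins of unequal width that are named on the axis, for collagens (left) and other protein-coding genes (right). Bins with under 20 CpGs are left out. The lines of collagens part in the bin farthest upstream, at 51.9% and 42.9%, and again beyond 1 kb, with 51.9% and 47.3% at 2 to 5 kb.

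Some stretches beyond the promoter were unmethylated in both libraries. Among the 46 windows of 1 kb that lay beyond the promoter and held 20 CpGs or more, 4 were under 20% in WT. The largest, in an intron of Col8a2, held 75 CpGs at 8.08% and 6.09%. A pair of adjacent windows in Col2a1, centred 1.65 and 2.65 kb from its 5' end and holding intron CpGs only, stood at 0.75% and 1.75% in WT and at 0.598% and 1.69% in KI. The remaining window, in Col27a1, stood at 3.40% and 3.07%. None of the 4 passed either test.

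The fall was spread along the genes, with steps in a few places. Collagen genes held 462 windows of 1 kb with 5 or more CpGs. The mean of 369 of these fell below its WT value and that of 93 rose above it. The median change was -3.23 points, beside -1.30 points for all gene windows and -2.78 points for all windows of the genome. A window was called where both tests passed and the mean changed by more than 10 points. Called lower were 27 windows in 14 genes, and 0 were called higher, beside 4.28% and 0.26% of the gene windows and 8.84% and 0.206% of all windows of the genome. The stratified test alone gave 2 higher windows, and summed strands 1. Col19a1 had 5 of the 27 and Col6a4 had 4. Of the 27, 15 held intron CpGs only and 12 held exon CpGs, and none touched a promoter. Windows over 70% in WT numbered 148, none of which was under 20% in KI or lost as much as 50% of its level. The largest fall among these 148 was in Col23a1. The 5 largest falls among called windows were in Col9a2, from 52.6% to 20.04% on 6 CpGs with 12.3 and 15.7 reads each, in Col23a1, from 70.5% to 49.8%, in Col28a1, from 63.8% to 43.7%, in Col5a2, from 77.9% to 59.3%, and in Col6a4, from 70.01% to 51.7%. A Col16a1 window of 7 CpGs stood at 60.5% and 38.3% on 5.71 and 7.71 reads each and was not called.

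At single CpGs, Fisher's exact test with adjustment over all shared CpGs and a difference above 25 points called 58 of the 6861 collagen CpGs lower and 10 higher. These are 0.845% and 0.146%, beside 0.445% and 0.0478% of the CpGs in autosomal protein-coding genes and 1.09% and 0.0474% of all shared CpGs. Median reads were 44 in WT and 43 in KI at collagen CpGs, and 34 and 35 over the CpGs of all these genes. Of the collagen CpGs 49.6% were over 70% in WT, beside 34.5% over all these genes. The part of depth and level in the share called was not tested. By class, 37 intron, 19 exon and 2 promoter CpGs were lower, which is 0.981%, 0.980% and 0.174% of the collagen CpGs of each class, beside 0.768%, 0.423% and 0.0854% in all genes. Higher were 3 intron, 7 exon and 0 promoter CpGs, or 0.0796% and 0.361% of the first 2 classes, beside 0.0684%, 0.0572% and 0.0196% in all genes, and 5 of the 7 exon CpGs lay in 1 stretch of Col6a6. The lower CpGs were spread over 26 genes, and the median level among them was 78.0% for WT and 40.0% for KI. Outside CCGG sites 44 of them were also read on the opposite strand, and 38 of those strands were lower. Of 3406 collagen CpGs over 70% in WT, 8 were under 20% in KI, and only 1 of these had at least 20 reads in both libraries. That CpG, in a CCGG site of a Col6a6 intron at chr9:105660927, went from 75.4% of 122 reads to 3.70% of 54, while the opposite strand stood at 98.1% and 100%. The largest fall among called CpGs, in the Col9a2 promoter at chr4:120712027, went from 85.7% to 0% on 7 and 8 reads, and its opposite strand from 15.4% to 12.8%. The next, in introns of Col16a1, Col28a1 and Col6a5, rested on 12 to 24 reads in each library. The opposite strands of these 5 CpGs changed by between -7.69 and 33.5 points.

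Pairs or groups of CpGs called in the same direction within 300 bases were found in 6 stretches, 5 of them lower in KI. Of these, 3 are printed with the stretch that rose, because they show which CpGs of a fragment moved. Each runs on the gene strand, from one CCGG to another except in Col6a6, where 10 bases stand on each side, and the called CpGs are in capitals.
Col23a1 intron, chr11:51143976-51144153: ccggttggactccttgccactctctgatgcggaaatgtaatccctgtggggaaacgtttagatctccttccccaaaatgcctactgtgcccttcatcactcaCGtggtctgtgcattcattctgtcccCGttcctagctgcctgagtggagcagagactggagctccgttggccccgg
Col5a2 intron, chr1:45496125-45496265: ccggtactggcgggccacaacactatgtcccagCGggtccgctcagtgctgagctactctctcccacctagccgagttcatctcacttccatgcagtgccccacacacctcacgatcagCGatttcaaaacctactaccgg
Col1a1 exon and intron, chr11:94802558-94802779: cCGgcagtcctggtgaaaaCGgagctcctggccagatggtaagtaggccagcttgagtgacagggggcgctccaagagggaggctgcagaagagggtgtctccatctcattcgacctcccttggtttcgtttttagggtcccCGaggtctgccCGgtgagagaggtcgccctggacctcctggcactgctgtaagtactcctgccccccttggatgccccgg
Col6a6 exon, chr9:105680047-105680179: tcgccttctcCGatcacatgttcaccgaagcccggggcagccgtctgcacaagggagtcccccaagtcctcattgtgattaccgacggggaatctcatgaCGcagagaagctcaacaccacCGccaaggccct

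In the Col23a1 fragment, which lies 13.8% of the way along the gene, 13 of 14 CpGs were lower and the mean went from 66.9% to 47.8% on 51 to 144 reads in WT and 38 to 105 in KI. Both strands at bases 55, 103 and 129 stood between 54.9% and 82.6% in WT and between 30.8% and 43.6% in KI. CpGs nearer the ends were at 84.3% or more in WT and 68.4% or more in KI, except the near-zero strand of each CCGG site. The middle was thus lower than the ends in both libraries. In the Col5a2 fragment 15 of 16 CpGs were lower, and the mean went from 77.9% to 59.3%. The Col1a1 stretch holds a further CCGG inside it, so it spans more than 1 MspI fragment, and it covers the end of an exon, the intron after it, the whole of coding exon 14 and the start of the next intron. Its 16 CpGs went from 32.8% to 17.6%, with 13 lower. In these printed stretches CpGs that were not called moved with those that were, for example from a mean of 66.2% to 49.8% at the other 12 CpGs of Col23a1. The lower stretches that are not printed differed. In that of Col6a4 the other 8 CpGs went from a median of 81.9% to 68.5%, with 6 lower and 2 higher. In that of Col6a3 the other 19 CpGs had medians of 81.5% and 78.9%, with 11 lower and 7 higher.

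The Col6a6 exon stretch behaved in another way. The 5 CpGs called higher there lie at bases 11, 101 and 122 of the stretch and went from between 40.0% and 51.8% in WT to between 77.9% and 98.4% in KI. The other 13 CpGs stood at a mean of 86.7% in WT and 82.3% in KI, and 11 of them were lower. They include 1 strand of a CCGG site at 40.5% and 27.8%. At bases 101 and 122 both strands rose, whereas at base 11 the gene strand went from 91.7% to 93.4% and the opposite strand from 51.8% to 98.4%. The 1 kb window around the stretch changed by 2.14 points from 75.5%, with 21 of 30 CpGs lower, and was not called. Col6a4 and Col6a6 together held 7 of the 10 higher CpGs. In a Col6a4 intron at chr9:105913228 a CpG went from 37.5% of 176 reads to 86.6% of 134, and its opposite strand from 72.9% to 90.9%. Of the remaining 3, that of Col4a1 went from 33.3% of 6 reads to 100% of 18 in a CCGG site, and those of Col14a1 and Col9a2 fell on the opposite strand.

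**Figure D5:**
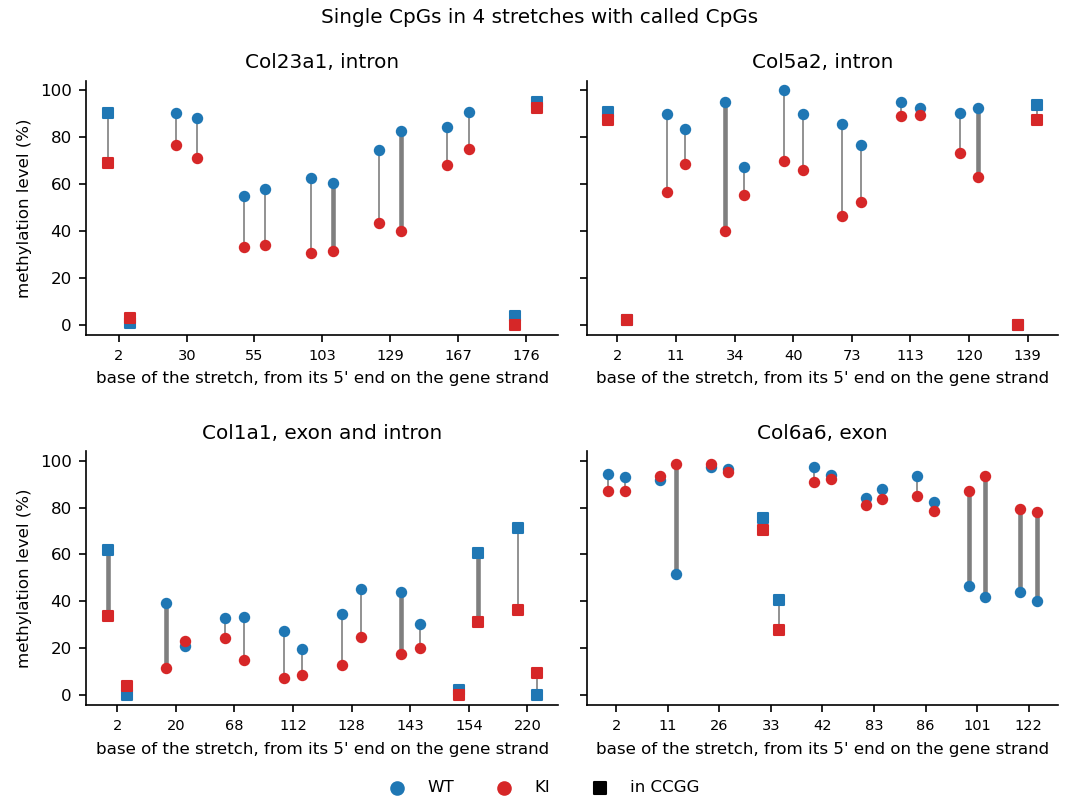
Each point is the methylation level of 1 CpG strand in WT (blue) or KI (red) in the 4 printed stretches, by the base of its cytosine, with the gene strand left and the opposite strand right of each tick and squares for CCGG sites. Thick lines join the values of called CpGs. Neighbours fell together in Col23a1, Col5a2 and Col1a1, while in Col6a6 the 5 called CpGs rose from between 40.0% and 51.8% in WT to between 77.9% and 98.4% in KI, among 13 others with means of 86.7% and 82.3%.

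Coding CpGs directly before a glycine codon, where the C ends one codon and the G opens the next, were set apart. In CCGG they changed by -4.07 points (-5.23 to -2.91) from 45.3% over 265 CpGs. Outside CCGG they changed by -0.852 points (-2.41 to 0.703) from 81.0% over 121 CpGs in 27 genes. Other coding CpGs of collagens changed by -2.97 points (-3.77 to -2.17) in CCGG, an interval that overlaps that of CpGs before glycine codons there. Outside CCGG they changed by -4.04 points (-4.64 to -3.44) from 70.1%. In other genes CpGs before glycine codons and other coding CpGs changed by -1.08 and -1.33 points in CCGG and by -1.50 and -1.65 points outside. The 121 CpGs were lower on average in 18 of the 27 genes and higher in 9. The latter include Col8a1, with 8 CpGs from 75.7% to 86.3%, and Col4a2, with 13 CpGs from 73.7% to 78.5%, both named after their values were seen.

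The genes that modify, fold, trim, cross-link, bind or cut collagens were taken as a list of 47, of which 43 were tested. Of these, 18 were called lower and 0 higher, beside 31.8% and 1.13% of all genes, and the median change was -1.56 points. Their exon and intron CpGs changed by -2.73 points from 59.5%, beside -3.89 points from 61.7% in the collagens. Called lower were the gelatinases Mmp2, from 33.9% to 28.3%, and Mmp9, from 36.6% to 31.2%, the collagen-binding integrin chain Itga11, from 62.2% to 57.4%, the collagen receptor tyrosine kinases Ddr1 and Ddr2, and the procollagen peptidase Adamts2, by -4.57 points. Not called were the cross-linking enzyme Lox, at 8.35% and 7.69%, the collagen chaperone Serpinh1, at 75.5% and 77.8%, and the prolyl hydroxylase chain P4ha1, at 11.7% and 12.1%.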

How the data were processed

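The authors aligned the RRBS reads with Bismark, given as version 0.12.20 in the submitters' processing notes, against mm9, and kept uniquely mapped reads. Trimming and duplicate removal are not given in the sources used here. The deposited coverage is a count of reads per CpG cytosine, and deposited beside it stand the methylated and unmethylated shares in percent. All other values were computed here. Methylated reads were recovered as whole numbers, within the rounding of the percent, at 100% of CpGs. A read with T is counted as unmethylated, so a C-to-T base difference between the mice and mm9 is read as lost methylation. Such differences were not tested. The KI sample is labelled knock out in its genotype field and KI in its title and was taken as KI. The paper prints the strain as C57BL/C.

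Summed coverage was 192144002 in WT and 173109895 in KI, and collagen CpGs had a median of 44 and 43 reads. CpGs had equal weight in means. Strand and CCGG sites were read from the mm9 sequence, and genes from its GENCODE annotation. P-values were adjusted by Benjamini-Hochberg over all shared CpGs, all 1 kb windows or all autosomal protein-coding genes with at least 5 shared CpGs. Intervals are at 95%, with levels pulled 0.5 reads off their limits. Named genes are the 8 largest falls among called collagens, 12 collagens of liver, the 4 with most CpGs, the 4 highest promoters, the 5 called windows and 5 called CpGs with the largest changes in each direction, and low windows. Families follow the usual classification, and other collagens are named as its members. The members, lists and rules were chosen with earlier results of these data known, and the coding sequence features and printed stretches after the values were seen. Alternatives were coverage minimums of 10 and 20 reads, CCGG sites left out, strands summed, reads thinned to the lower coverage, each test alone, a chi-square test, and other weights, genes and start sites. Procedures were tested on simulated data. Tests ran in scipy 1.17.1 and numba 0.67.0 under Python 3.11.15, tables in pandas 2.3.3 and numpy 2.4.6, and plots in matplotlib 3.10.9.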

Additional observations from a re-analysis of the deposited data

How the results depend on the processing

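With 1 library per genotype no replicate could be left out. No paired analysis was possible because each genotype has 1 library. None of the class means and none of the named genes changed direction under the alternatives tried for them. The mean change over all collagen CpGs was -3.73 points without CCGG sites and -3.95 points as a mean of gene means, against -3.35 points. The promoter change was -1.57 points as a mean of gene means and -1.65 points around any transcript start, against -0.691 points. The intron change was -4.85 points without CCGG sites and -4.58 points as a mean of gene means, against -3.86 points. Counts of lower genes, promoters, exons, introns, CpGs and windows stayed within 1.5 times. Leaving out promoter CpGs, which was chosen after seeing the data, gave 35 lower genes against 34. The 10 higher CpGs were 8 to 11 under the alternatives. In the main setting no gene, promoter, exon, intron or window was called higher by both tests. Fisher's test alone gave 1 gene, and the stratified test alone 1 gene's exons and 2 windows. With strands summed, both tests together called 1 window higher. Of 110 values of named genes under 5 alternatives, 106 kept their direction and call, 2 of Col1a2 gained it and 2 of Col4a2 lost it. Counting error limits values at under 10 reads, and no spread between animals could be had.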

Other observations

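The 2 collagen genes of the X chromosome, which the rule on autosomes left out, were also lower in KI. Col4a6, which pairs with Col4a5 in basement membranes of smooth muscle, went from 55.0% to 47.4% (-10.2 to -4.88 points) over 64 CpGs. Col4a5, the chain altered in X-linked Alport syndrome, went from 53.2% to 49.1% (-5.60 to -2.57 points) over 86 CpGs, and its promoter stood at 0% and 0.238%. The mice were males, which inherit 1 X chromosome.

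Some collagen CpGs were read in 1 library only. CpGs with at least 20 reads in WT and no read in KI numbered 10, of which 5 lay in Col6a5 and 5 in its neighbour Col6a6, and 0 were read in KI only. They were 0.195% of the collagen CpGs with at least 20 reads in WT, beside 0.0451% over the autosomes, where the reverse case made up 0.0914%. Their part in the values of Col6a5 and Col6a6 was not tested.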
